A study of Rattus norvegicus with 90 samples.

Results

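Untreated rat cardiomyocytes were compared with untreated rat renal tube epithelial cells at 9 h, in 5 libraries of each cell type. These 10 libraries were chosen by their labels (dose Vehicle, duration 9 h) from 90 libraries in 18 conditions of a study of thioacetamide-S-oxide, a metabolite of the liver toxicant thioacetamide. The cells came from Sprague-Dawley rats, with heart as the tissue label of the cardiomyocytes and kidney as that of the renal cells, and neither group had been given the toxicant. According to the labels, both were cultured for 18 h more before the vehicle was added, and the vehicle of the renal cells was their maintenance medium, EpiCM. The medium of the cardiomyocytes and the age of the animals are not given in the sources used here. The renal cells were bought frozen as proximal tubular epithelial cells and grown on poly-L-lysine, whereas the source of the cardiomyocytes is not described. Nothing says that the 5 libraries of a cell type came from separate animals, so the p-values measure only the spread between these libraries, which may be technical. Cell type, supplier, medium and plating cannot be told apart in this comparison.

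Cardiomyocytes are the contractile cells of the heart, packed with sarcomeres and with mitochondria that supply the energy of contraction. Proximal tubular epithelial cells line the first stretch of the kidney tubule, where they take back most of the filtered water, salts, glucose and amino acids through membrane transporters. Both use much oxidative energy, and both are targets of drug toxicity, which is why they serve in culture models of organ injury. Cells taken from either tissue can lose part of their specialised expression in culture. Heart and kidney also hold fibroblasts, endothelial cells and immune cells. The files identify transcripts by Ensembl identifiers without gene names, and no table used here pairs these identifiers with genes. The labelled cell types were therefore not checked against their marker genes, no pathway could be counted, and the function of no transcript below is stated.

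The 10 libraries held 17583672 to 28545737 estimated counts on transcripts, 17583672 to 25562619 in cardiomyocytes and 21436113 to 28545737 in renal cells. Transcripts took 90.1 to 94.4% of all estimated counts in cardiomyocytes and 92.1 to 92.8% in renal cells. Libraries of the same cell type were alike. Across the 17856 transcripts tested, Spearman's rho of log2(TPM + 1) (TPM is a level scaled for transcript length and library depth) was 0.985 to 0.990 between cardiomyocyte libraries and 0.990 to 0.992 between renal libraries. Between the cell types it was 0.812 to 0.816, below every value within a cell type. These are correlations across transcripts, which are not independent replicates. On the log2 CPM scale (counts scaled for library depth), a cardiomyocyte library differed from the renal mean by 0.966 ± 0.0048 per transcript (mean absolute difference, SD, n = 5 libraries). It differed from the mean of the other cardiomyocyte libraries by 0.179 ± 0.012, and a renal library differed from the other renal libraries by 0.144 ± 0.0077.

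Most expressed transcripts were found in both cell types. In cardiomyocytes, 14495 of the 40071 transcripts reached 1 TPM in all 5 libraries, and in renal cells 15026 did. The lists shared 13332 transcripts, which is 91.98% of the cardiomyocyte list and 88.7% of the renal list, and 11554 also reached 1 TPM in all 5 hepatocyte libraries of the same time. Of the 10 transcripts with the highest mean TPM in each cell type 6 were the same, of the 100 highest 78 were the same, and of the 1000 highest 761 were the same. By counts, which weight long transcripts more, the shared numbers were 2 of 10, 53 of 100 and 692 of 1000.

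The levels nevertheless differed widely. Of the 17856 transcripts tested, 8195 were called, 45.9% of those tested, where a call needs an adjusted p no higher than 0.05 together with a difference of 0.41 or more on the natural-log scale, or 1.51-fold (edgeR's quasi-likelihood F test, adjusted by Benjamini-Hochberg). In bulk RNA, fewer cells of a type and less RNA per cell cannot be told apart. The calls were nearly even in direction. In cardiomyocytes 4118 transcripts were higher (23.1%), and in renal cells 4077 were higher (22.8%). All 5 libraries of one cell type lay on one side of all 5 of the other for 11986 transcripts (67.1% of those tested). With cardiomyocytes on the higher side these were 33.2% of those tested, and with renal cells on the higher side 33.9%. Such separation held for 3856 of the 4118 called higher in cardiomyocytes (93.6%) and for 3860 of the 4077 called higher in renal cells (94.7%). With no threshold on the fold change 13616 transcripts were called, so the size threshold removed many small differences that exceeded the spread between libraries. The even split depended in part on the scaling. Scaling by library size alone lowered the median log2 fold change of all tested transcripts from -0.01 to -0.13 and gave 3567 higher and 4697 lower in cardiomyocytes. In the limma fit on log2(TPM + 1) these numbers were 2872 and 4043. That fit differed in more than scaling, since it used another test and only transcripts at 1 TPM or more in at least 5 libraries.

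Large differences were frequent in both directions, and the largest were more often toward the renal cells. The median called difference was 2.65-fold for transcripts higher in cardiomyocytes and 2.92-fold for those higher in renal cells. A difference of 4-fold or more was seen for 1492 transcripts higher in cardiomyocytes (36.2% of those called) and for 1654 higher in renal cells (40.6%). At 16-fold or more the numbers were 559 (13.6%) and 795 (19.5%), and at 64-fold or more 226 (5.49%) and 335 (8.22%). In these bands a group with fewer than 3 counts over its 5 libraries was set to 3 counts, since a fitted fold change there depends on the prior count. This applied to 3.04% of the transcripts called higher in cardiomyocytes and 5.37% of those called higher in renal cells, and the median differences did not change with it. Over all tested transcripts, the absolute log2 fold change had a mean of 1.24 and a median of 0.57. Setting the groups under 3 counts to 3 counts gave a mean of 1.21.

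**Figure D1:**
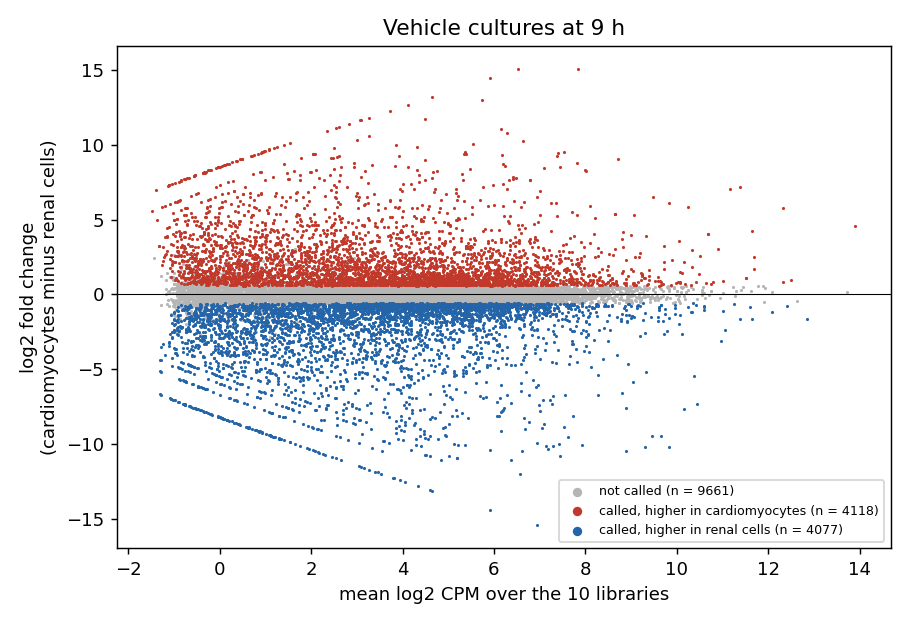
Log2 fold change (cardiomyocytes minus renal cells) against the mean log2 CPM over the 10 libraries, one point per tested transcript, red for the 4118 called higher in cardiomyocytes, blue for the 4077 called higher in renal cells and grey for the rest. Calls lie on both sides at every abundance, and the straight edges at the upper and lower left are transcripts with no or few counts in one cell type, whose fitted value depends on the prior count.

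Among the transcripts that passed the filter, the share called varied with abundance. Of the 1514 transcripts with a mean log2 CPM below 0, 55.0% were called, and of the 5117 between 0 and 3, 55.4% were. The share was 40.6% of the 8010 between 3 and 6, and 38.4% of the 2960 between 6 and 9. Among the 255 most abundant, with a mean log2 CPM of 9 or more, it was 52.2%. Differences of 4-fold or more followed a similar course, at 33.1% and 26.3% in the low bands, 11.7% and 10.8% in the next bands, and 15.7% among the most abundant. The filter keeps a transcript that has enough counts in either cell type alone. Near its cut it therefore favours transcripts that differ, so the high shares in the low bands may be partly built in. How these shares change with another filter was not tested. From a mean log2 CPM of 6 upward the calls leaned toward cardiomyocytes, which were the higher cell type in 633 of 1138 calls between 6 and 9 (55.6%) and in 54.9% of the calls at 9 or more. This lean was computed with TMM scaling only. Whether it holds under the other scalings, which moved the split of all calls, was not tested.

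Transcript length was alike in both directions. The median length was 2306 bases for transcripts higher in cardiomyocytes and 2303 bases for those higher in renal cells, against 2089 bases for those not called and 2182 bases for all tested. The share called was 38.4% of transcripts under 1000 bases, 45.0% from 1000 to 2000, 47.6% from 2000 to 4000 and 49.5% at 4000 bases or more. The median log2 fold change lay between -0.02 and 0.04 in all 4 length bands.

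The called transcripts took a large part of the transcript counts, which weight long transcripts more. Those higher in cardiomyocytes took 36.6% ± 0.21 (SD, n = 5) of the transcript counts of cardiomyocytes and 12.5% ± 0.037 of those of renal cells. Those higher in renal cells took 30.7% ± 0.13 of the renal counts and 9.88% ± 0.043 of the cardiomyocyte counts. The 9661 transcripts not called held 53.5% ± 0.24 of the counts in cardiomyocytes and 56.7% ± 0.12 in renal cells. These shares follow from how the lists were chosen and carry no test. In hepatocytes at 9 h, which had no part in the choice, the list higher in cardiomyocytes took 15.5% ± 0.18 of the counts and the list higher in renal cells took 25.5% ± 0.35.

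Hepatocyte levels differed between the lists. Of the transcripts higher in cardiomyocytes, 1760 of 4118 (42.7%) had a mean under 1 TPM in hepatocytes, compared with 1416 of 4077 (34.7%) of those higher in renal cells and 25.3% of all tested. On the log2(TPM + 1) scale, 73.7% of the transcripts higher in cardiomyocytes had a hepatocyte level nearer to that of renal cells. Of those higher in renal cells, 38.5% were nearer to renal cells and 61.5% nearer to cardiomyocytes. For all tested transcripts 53.1% were nearer to renal cells. The median level of the list higher in cardiomyocytes was 10.3 TPM in cardiomyocytes, 3.24 in renal cells and 1.91 in hepatocytes. For the list higher in renal cells it was 10.3 TPM in renal cells, 2.12 in cardiomyocytes and 3.68 in hepatocytes.

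Fewer transcripts were detected in cardiomyocytes. At least 1 rounded count was found for 21289 to 22259 transcripts (mean 21699 ± 358, SD, n = 5) in cardiomyocyte libraries and for 22109 to 23022 (22591 ± 325) in renal libraries. The ranges overlapped by 1 cardiomyocyte library, MS-151, the deepest of its group, and 1 renal library, MS-121, the shallowest of its group. The difference of -892 transcripts had an adjusted p of 0.0159 over 3 library measures (two-sided exact permutation test, whose smallest unadjusted p for 5 against 5 is 0.00794). After every library was thinned to the smallest total of 17583643 rounded counts, the difference was -540 transcripts and the groups no longer overlapped, with 21070 to 21673 transcripts in cardiomyocytes and 21788 to 22188 in renal cells (adjusted p = 0.00794, exact permutation test). In cardiomyocytes 626 to 651 transcripts held the upper 50% of the transcript counts, and in renal cells 779 to 788 did.

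The weight of the most abundant transcripts depended on the unit. The 10 most abundant took 9.17% ± 0.072 of the transcript counts in cardiomyocytes and 6.83% ± 0.085 in renal cells (n = 5 each, adjusted p = 0.0119, two-sided exact permutation test over 3 measures). By TPM, the order turned, with 8.20% ± 0.41 in cardiomyocytes and 8.77% ± 0.15 in renal cells, a difference of -0.571 percentage points with an adjusted p of 0.0238 (exact permutation test) and groups that overlapped. The 100 most abundant took 26.2% ± 0.25 of the counts in cardiomyocytes and 22.6% ± 0.097 in renal cells (adjusted p = 0.0119, exact permutation test). By TPM they took 34.8% ± 1.17 and 32.3% ± 0.62, in the same direction as by counts.

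**Figure D2:**
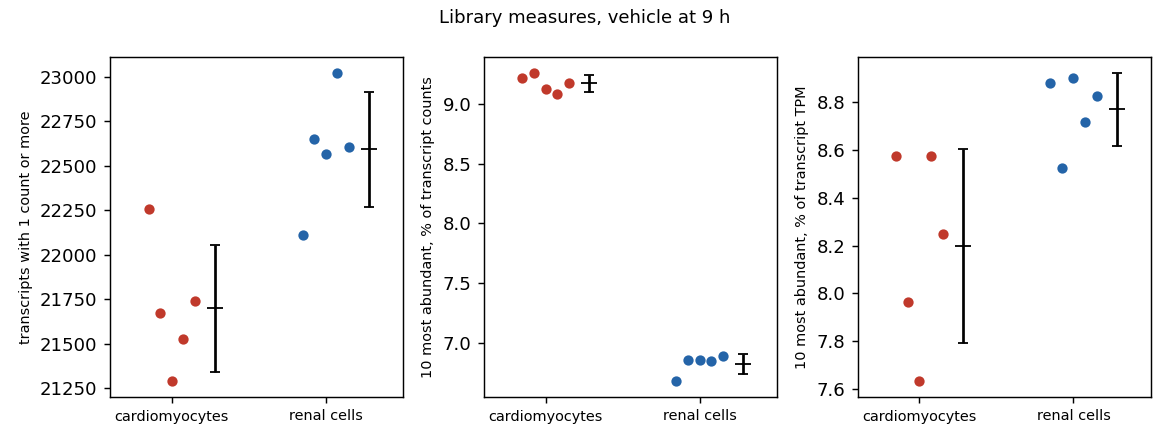
Transcripts with 1 or more rounded counts, and the percent of transcript counts and of transcript TPM in the 10 most abundant transcripts, in 5 cardiomyocyte libraries (red) and 5 renal libraries (blue) at 9 h, with the mean and SD in black; the axes do not start at 0. The cardiomyocyte libraries lie above the renal ones by counts (9.08 to 9.26% against 6.68 to 6.89%) and mostly below them by TPM (7.63 to 8.57% against 8.53 to 8.90%).

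Among the most abundant transcripts by TPM, the share called was near that of all tested, unlike the 52.2% called among the most abundant by counts. The 10 highest by TPM in either cell type formed a list of 14 transcripts, of which 3 were called higher in cardiomyocytes and 3 higher in renal cells (42.9%, against 45.9% of all tested). The 100 highest in either formed a list with 32 called higher in cardiomyocytes and 21 higher in renal cells (43.4%). In that list the log2 fold changes ran from -9.48 to 7.17. In the list of 1239 from the 1000 highest, 309 were higher in cardiomyocytes and 247 in renal cells (44.9%).

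Few transcripts were present in one cell type and near 0 in the other. Of the 14495 transcripts that reached 1 TPM in all 5 cardiomyocyte libraries, 0.904% stayed under 0.1 TPM in all 5 renal libraries. The reverse held for 235 of the 15026 transcripts of renal cells, or 1.56%. In the other cell type, 41.2% of the cardiomyocyte list and 43.0% of the renal list had no rounded count in any of the 5 libraries. Their levels were mostly low, with a median of 3.71 TPM for the cardiomyocyte list and 4.20 TPM for the renal list. A mean of 10 TPM or more was reached by 29 and 61 of them, and 100 TPM or more by 4 of the cardiomyocyte list and 0 of the renal list. The highest mean was 241 TPM in the cardiomyocyte list and 89.6 TPM in the renal list.

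A larger share of the renal list than of the cardiomyocyte list was present in hepatocytes. Of the 235 renal transcripts, 57 (24.3%) reached 1 TPM in all 5 hepatocyte libraries and 98 (41.7%) stayed under 0.1 TPM in all 5. Of the cardiomyocyte list, 13 transcripts (9.92%) reached 1 TPM and 81 (61.8%) stayed under 0.1 TPM. At 24 h, in other vehicle cultures, 79 transcripts of the cardiomyocyte list (60.3%) and 66.8% of the renal list met the same criteria again. They made up 51.3% and 57.5% of the transcripts that met the criteria at 24 h. No transcript of either list met the reverse criteria at 24 h.

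ENSRNOT00000082548, of 2538 bases, had the largest fold change toward cardiomyocytes among abundant transcripts. Its TPM in cardiomyocyte libraries MS-151 to MS-155 was 238, 236, 246, 232 and 256. It was listed at 0 in renal libraries MS-121 to MS-124 and at 0.0229 TPM in MS-125. The 5 cardiomyocyte libraries held 44295 rounded counts of it, compared with 1 count in the 5 renal libraries together. Scaled by library size and TMM factor, the ratio was 58791, with a 95% counting interval of 10552 to 2322135 that rests on that 1 count and covers counting error only. The fitted log2 fold change of 15.07 (SE 0.093, adjusted p = 4.79e-17, edgeR) depends on the prior count. The SE is taken from F, is far narrower than that interval, and is no measure of error with 1 renal count. Each of the 10 libraries gave this transcript a whole estimated count, 0 in 4 renal libraries, which does not show that all its reads were unique to it. In hepatocytes at 9 h it had 1 count in MS-92, 1 count in MS-93 and none in the other 3 libraries. Over all 30 cardiomyocyte libraries of the study, treated ones included, its level ran from 75.2 to 317 TPM, and over all 30 renal libraries from 0 to 0.816 TPM.

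ENSRNOT00000092499, of 3906 bases, had the largest fold change toward renal cells among abundant transcripts. Its TPM in renal libraries MS-121 to MS-125 was 83.6, 85.3, 90.7, 97.1 and 91.5. No cardiomyocyte library had a rounded count of it, so the groups lay far apart. The renal libraries held 31500 counts in all. Against a floor of 3 counts over the 5 cardiomyocyte libraries, the ratio was 7911 after scaling by library size and TMM factor. The counts of this transcript were not whole in every library, so some reads were divided among transcripts, and a 0 can come from that division. Neither 7911 nor the fitted value of -15.42 (SE 0.15, adjusted p = 1.46e-11, edgeR) is therefore a bound. The SE is no measure of error with 0 counts in 1 group. Hepatocytes at 9 h held 0 to 52 counts of this transcript (0.347 ± 0.26 TPM, SD, n = 5). At 24 h the vehicle-treated renal libraries gave 44.0 to 86.4 TPM and the cardiomyocytes again 0 counts.

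ENSRNOT00000013608, of 1389 bases, was the most abundant transcript by TPM among those called higher in cardiomyocytes. The cardiomyocyte libraries gave 7068, 6447, 6649, 6524 and 6961 TPM, and the renal libraries 4257, 4207, 4323, 4154 and 4109 TPM. All cardiomyocyte values lay above all renal values, as the choice of the 4 named transcripts required. The mean was 6730 ± 272 TPM in cardiomyocytes, the sixth highest level there, and 4210 ± 84.0 TPM in renal cells (SD, n = 5 each), the fifteenth highest. The log2 fold change was 0.81 (SE 0.022, adjusted p = 6.29e-12, edgeR), or 1.75-fold. In hepatocytes it stood at 3507 ± 71.3 TPM (SD, n = 5), below the range of either cell type.

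ENSRNOT00000013393, a short transcript of 297 bases, was the most abundant by TPM among those called higher in renal cells, where it ranked second of all transcripts. The renal libraries gave 11556, 11062, 12488, 11148 and 11419 TPM, and the cardiomyocyte libraries 3144, 3125, 2879, 2895 and 3159 TPM. The lowest renal value lay above the highest cardiomyocyte value, which the choice of the transcript also required. The means were 11534 ± 569 TPM and 3040 ± 140.8 TPM (SD, n = 5 each). The log2 fold change was -1.80 (SE 0.037, adjusted p = 5.30e-13, edgeR), or 3.47-fold higher in renal cells. Hepatocytes, at 3697 ± 283 TPM (SD, n = 5), lay closer to cardiomyocytes.

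**Figure D3:**
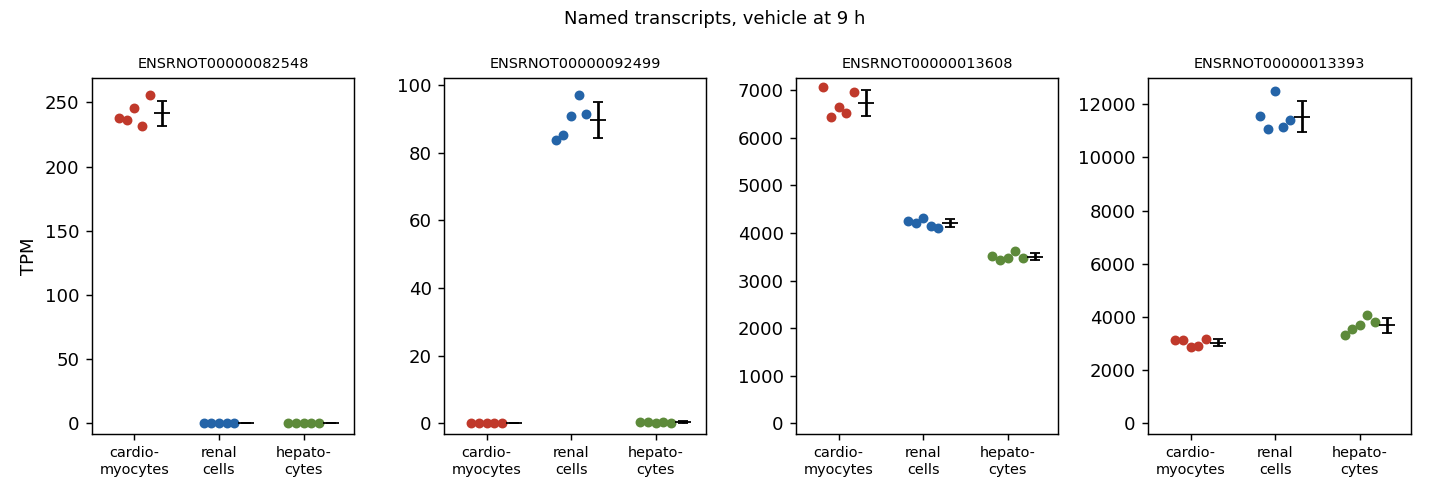
TPM of the 4 named transcripts in each vehicle library at 9 h, 5 per cell type, with the mean and SD in black; each panel has its own linear axis. ENSRNOT00000082548 is at 232 to 256 TPM in cardiomyocytes and near 0 elsewhere, ENSRNOT00000092499 at 83.6 to 97.1 TPM in renal cells and near 0 elsewhere, while ENSRNOT00000013608 and ENSRNOT00000013393 are high in all 3 cell types and separate cardiomyocytes from renal cells.

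Outside the comparison, these transcripts ranged more widely. In cardiomyocytes given 1.5 mM, ENSRNOT00000082548 had a median of 123.9 TPM at 9 h and 134.7 TPM at 24 h, compared with 238 and 305 TPM in vehicle (n = 5 each, not tested here). Over the 30 cardiomyocyte libraries, ENSRNOT00000013608 ran from 1106 to 7068 TPM (median 6294). Its lowest value in cardiomyocytes came from a group given 0.5 mM for 24 h, and ENSRNOT00000092499 was listed at 0 in a renal library given 0.125 mM for 24 h, MS-145. In 3 treated libraries, MS-145, MS-158 and MS-172, the 10 most abundant transcripts took 30.7%, 30.8% and 34.2% of the transcript counts. An untreated hepatocyte library at 24 h, MS-183, also stood apart, with 19.2% of its transcript counts in the 10 most abundant and 8.33% of all its counts on transcripts. None of these libraries entered the comparison at 9 h.

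The same contrast was made in 10 other vehicle cultures at 24 h, which share no library with those at 9 h. There 8669 of 18049 transcripts were called (48.0%), 4524 higher in cardiomyocytes (25.1%) and 4145 higher in renal cells (23.0%). Called in the same direction at both times were 6779 transcripts, 82.7% of those called at 9 h and 78.2% of those called at 24 h. For those higher in cardiomyocytes at 9 h the number was 3445 of 4118 (83.7%), and for those higher in renal cells 3334 of 4077 (81.8%). The direction was opposite for 30 transcripts, 15 from each list. Of the called transcripts that were also tested at 24 h, 98.4% of those higher in cardiomyocytes and 97.5% of those higher in renal cells had the same sign. Over the 17506 transcripts tested at both times, Pearson's r of the log2 fold changes was 0.949 and Spearman's rho 0.902, as a description across transcripts.

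**Figure D4:**
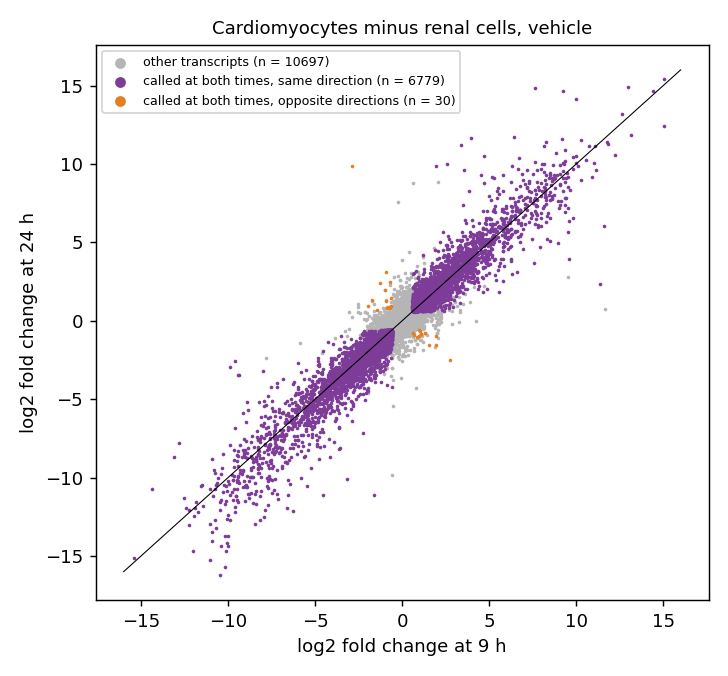
Log2 fold change (cardiomyocytes minus renal cells) at 24 h against that at 9 h for the 17506 transcripts tested at both times, in separate libraries; the line marks equal values. The 6779 transcripts called in the same direction at both times (purple) follow the line, 30 were called in opposite directions (orange), and the values farthest from 0 depend on the prior count.

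A difference in contrast between the times was tested in the 20 libraries together. Of 18975 transcripts, 1977 (10.4%) had a contrast at 24 h that differed from that at 9 h (edgeR, with the thresholds used above). In 1157 the difference was toward cardiomyocytes and in 820 toward renal cells. Of the 1893 also tested at each time alone, 1094 had the same sign and a larger size at 24 h, 426 the same sign and a smaller size, and 373 the opposite sign. Of the transcripts called at 9 h, 1325 (16.2%) were among them. The renal libraries at 24 h were less alike than those at 9 h. In MS-137 and MS-140 the 10 most abundant transcripts took 9.78% and 10.2% of the transcript counts, compared with 8.38 to 8.47% in the other 3. With both left out, 1941 transcripts had a different contrast, 1654 of them in common, and 8951 were called at 24 h. Cardiomyocyte library MS-168 at 24 h also stood apart, with 13.0% of its TPM in the 10 most abundant, compared with 8.22 to 9.65% in the others of its group. Leaving it out alone gave 2139 differing contrasts and 8977 calls at 24 h, the most for any single library left out.

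The 4 named transcripts kept their direction at 24 h. The fitted log2 fold change of ENSRNOT00000082548 was 12.43 (SE 0.24, adjusted p = 2.84e-12, edgeR) at 24 h, when the renal libraries held 11 counts, and the fitted difference from 9 h was -2.65 (SE 0.90, adjusted p = 0.0372, edgeR). That difference rests on 1 against 11 renal counts, 7 of the 11 in MS-139, and depends on the prior count. Its SE and that of the 24 h value are no measure of error at so few counts. ENSRNOT00000013608 had a log2 fold change of 0.45 (SE 0.071) at 24 h, which is under the fold threshold and was not called, and its difference from 9 h was -0.36 (SE 0.077, adjusted p = 0.00166, edgeR), also under the fold threshold. For ENSRNOT00000013393 the 24 h value was -1.96 (SE 0.13, adjusted p = 1.20e-07, edgeR), and the difference of -0.16 (SE 0.14, adjusted p = 0.487, edgeR) did not pass the test. No difference between the times is given for ENSRNOT00000092499, which had no count in cardiomyocytes at either time.

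Transcripts of one gene can share reads, which the counting divided among them. Of the 17856 tested, 7438 (41.7%) had whole counts in all 10 libraries, within 0.001. The share called was 48.0% of these and 44.4% of the others. A whole count does not show that no read was shared. Because counts were scaled to the library total, a change in the amount of RNA per cell is not measured by these values.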

How the data were processed

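Poly-A RNA was sequenced as stranded paired reads. The authors deposited, per library, the estimated counts and the TPM (a length-scaled level) that kallisto 0.42.4 assigned to 65166 targets of Rnor_6.0 (version and build per the submitters' processing notes). Of these, 40071 are transcripts. The other 25095, genomic intervals, were left out. The groups came from the labels. The estimated counts were rounded and tested per transcript with edgeR 4.0.16 under R 4.3.3, by its filterByExpr filter, TMM scaling and quasi-likelihood functions, and the SE is the size of the log2 fold change divided by the square root of F. Where a group has few or no counts, that SE is no measure of error. Alternatives used DESeq2 1.42.0, limma 3.58.1 on log2(CPM + 0.5) and log2(TPM + 1), other scalings and filters, added cell types or times, and left-out libraries. The scripts were tested on simulated data. Library measures were compared with exact permutation tests (Python 3.11.15, numpy 2.4.6). The biological coefficient of variation was 0.129 in cardiomyocytes and 0.0859 in renal cells. Depth was 17583672 to 28545737 counts on transcripts, so counting error matters mainly near 0.

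The named transcripts are, among those called, with mean log2 CPM no lower than 3 and no overlap between the groups, the one with the largest log2 fold change in each direction, and the one with the highest TPM in each cell type among those higher there. The comparison and these rules were chosen with earlier results of these data known. Gene marker lists had been planned and were not used, because no transcript could be matched to a gene table.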

Additional observations from a re-analysis of the deposited data

Results flagged for a closer look

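In renal library MS-121 at 9 h the 10 most abundant transcripts took 6.68% of the transcript counts, apart from the other 4 renal libraries at 6.85 to 6.89%. ENSRNOT00000082548 was at 0.0229 TPM in renal library MS-125 at 9 h, which is 1 count, while the other 4 had none. ENSRNOT00000092499 was listed at 3.76e-08 TPM in cardiomyocyte library MS-155 at 9 h, which rounds to 0 counts, and at 0 in the other 4. At 24 h, ENSRNOT00000082548 was at 258.0 TPM in cardiomyocyte library MS-169 and at 301 to 317 TPM in the other 4. ENSRNOT00000013393 was at 4452 TPM in cardiomyocyte library MS-168 at 24 h and at 3147 to 3427 TPM in the other 4. These 5 values each lay far from the rest of their group by Dixon's ratio, among 26 groups of 5 libraries examined. Chance gives such a value in about 1 group in 20, a rate that does not apply where the other 4 libraries are at 0, since any value above 0 then stands apart.

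Between the times, the contrast of cardiomyocytes with renal cells differed for 1977 transcripts by the test of the difference itself. Among the named transcripts, that of ENSRNOT00000082548 differed by -2.65 on the log2 scale (24 h minus 9 h), a fitted value that rests on 1 renal count at 9 h and 11 at 24 h.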

How the results depend on the processing

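Of 303 recomputed values of the results and the 4 named transcripts, 273 kept their direction and their side of the threshold, or stayed within the allowed range. The share of counts in the 10 most abundant transcripts reversed, from a difference of 2.35 percentage points by counts to -0.571 by TPM, where length is divided out. With no fold threshold 13616 transcripts were called at 9 h, 6728 higher and 6888 lower in cardiomyocytes, and 4566 contrasts differed between the times. Among transcripts with whole counts alone, added after the data were seen, 3588 were called, 1806 higher and 1782 lower, since fewer were tested. The mean absolute log2 fold change of 1.24 moved to 1.25 with library size alone, 0.938 with limma on CPM, 0.830 with limma on TPM, 1.45 with no filter, 1.28 with 5 or more counts asked of 47% of the libraries, 1.31 with all 3 cell types, 1.32 with both times in one fit and 1.30 for whole counts, and the cause was not tested. Of the transcripts on in cardiomyocytes, the share off in renal cells was 0.904%, and it was 0.373% with off as 0 counts and 0.299% with on as 10 TPM. In the reverse direction it was 1.56%, 0.685% and 0.618%.

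Leaving out each library in turn gave 8198 to 8366 calls at 9 h (4094 to 4193 higher, 4045 to 4207 lower), a mean absolute log2 fold change of 1.26 to 1.28, 8684 to 8977 calls at 24 h, 6743 to 6841 shared calls and 1857 to 2139 contrasts that differed. The shares of transcripts on in one cell type and off in the other were then 0.903 to 0.987% and 1.56 to 1.74%. The filter was rerun in each of these refits. In all of them the calls at 9 h, the calls at 24 h and the mean lay above the main values of 8195, 8669 and 1.24. The mean counted as moved each time. The 4 named transcripts kept their direction and their call at 9 h in the refits that included them. With a fold change of at least 2 as the threshold, 5550 transcripts were called at 9 h, and ENSRNOT00000013608, at 1.75-fold, would not be. No paired analysis was possible because the cell types share no replicate number.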
